A study of Salmo salar with 57 samples.

Results

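Serotonin is made from the amino acid tryptophan in 2 enzymatic steps. Tryptophan 5-hydroxylase 1 (TPH1) carries out the rate-limiting hydroxylation, and aromatic-L-amino-acid decarboxylase (DDC) turns the hydroxylated product into serotonin. DDC also converts L-DOPA to dopamine, so it is less specific to serotonin than TPH1. In the gut of mammals most serotonin comes from enterochromaffin cells, a type of enteroendocrine cell in the epithelium, and it acts on enteric nerves, smooth muscle and secretion. The other main route of tryptophan breakdown is the kynurenine pathway, which competes for the same substrate. The expression of TPH1 and DDC was followed here in the distal intestine of Atlantic salmon (Salmo salar L.), 1 probe for each gene (Ssa_S32009082 for TPH1 and Ssa_DY727761 for DDC), out of 14841 probes on the array. The probes were taken by their names, not by their values, though the gene names come from the study's list of probes it had called on these fish. Both were among the 12065 probes that passed the filter on dim spots. The probes could not be tied to 1 of the duplicated gene copies of salmon.

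Non-vaccinated post smolt fish received 1 of 6 diets for 4 weeks: fish meal (FM, the negative control), 20% soybean meal (SBM, the positive control), or 20% soybean meal together with 20% of a microbial ingredient. The ingredient was Candida utilis (CU), Saccharomyces cerevisiae (SC) or Kluyveromyces marxianus (KM), which are yeasts, or the green alga Chlorella vulgaris (CV). The FM diet held no soybean meal, and the soybean diets therefore differ from FM in soybean meal and, except for SBM, in a microbial ingredient as well. Fish meal and crude protein were also lower in SBM than in FM, and lower still in the diets with a microbial ingredient. These last diets held slightly more fish oil. Each of 57 fish gave 1 one-colour array: 10 fish for each diet, and 7 for SBM. The fish were kept in 3 tanks per diet, and the authors left out 1 SBM tank because its histology differed from that of the other SBM tanks, so the SBM fish come from 2 tanks. The tank of a fish is not in the labels, so fish were treated as independent and the p-values measure the spread between fish. Diets were given to whole tanks, and the spread between tanks was not modelled. The p-values may therefore be too small and the intervals too narrow. The sample titles carry only a letter for the diet, and the key from letter to diet is not in the labels. The histology scores served to set the letters to diets, so their medians by diet do not test the key. With the authors' deposited table, the probes that differed from FM by the study's rule numbered 2668 in SBM, 645 in CU, 2674 in SC, 634 in CV and 969 in KM. The paper reports the same counts for these diets. The main fit used below, on values processed anew, called 2690, 647, 2715, 1278 and 1347 in the same order. It thus called many more probes in CV and KM. Of its CV calls 94.3% were above FM, against 72.7% with the deposited table. The shares of all tested probes given below come from the main fit. The fish on the arrays had been selected on RNA integrity. The sum of the histology scores (4 criteria) had a median of 0 in FM, 8 in SBM, 7 in SC, 5.5 in KM, 0.75 in CU and 0 in CV.

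Both probes read the whole tissue, in which fewer cells of a type and less RNA per cell cannot be told apart. TPH1 was dim, with a mean log2 normalized intensity of 4.76, and 8.18% of the tested probes were dimmer. Its signal before normalization, already background-subtracted, had a median of 12.98 intensity units in FM and 44.3 in SC. The raw local background of its spots had a median of 15.5 and 17.8. A subtracted signal smaller than this does not mean a spot below background. The spot passed the filter on 54 of 57 arrays. It was not well above background in FM fish 1 and 3 and in CU fish 2, whose values were imputed from the 10 most similar probes. DDC had a mean log2 intensity of 6.81, was measured on all 57 arrays, and neither probe was saturated on any array. Of the epithelium markers, 4 probes with a name could be read, and their mean log2 intensity ran from 11.2 to 12.3 over all fish. Levels of different probes depend on the probe and are not set against each other.

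TPH1 was higher in SC than in FM, and SC was the only diet in which the gene was called differentially expressed (DE). The log2 intensity in FM ran from 3.31 through a median of 3.99 to 5.94. In SC it ran from 4.86 through 5.27 to 6.17. All 10 SC fish lay above the FM mean of 4.18, and every FM fish but 1 lay below every SC fish. The exception, FM fish 9, was brighter than 9 of the 10 SC fish, so the groups overlapped through that fish alone. The log2 fold change (FC) was 1.14 (SE 0.31, 95% CI 0.52 to 1.77, n = 10 and 10), a 2.21-fold difference (limma, adjusted p = 0.0195 for the F-test over the 5 contrasts with FM). A probe was called DE when the nested F-test passed an adjusted p of 0.05 and the log2 FC was at least 0.4 in either direction. Of all tested probes, 13.2% were called above FM in SC by this rule. All 5 contrasts share the same FM fish.

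**Figure D1:**
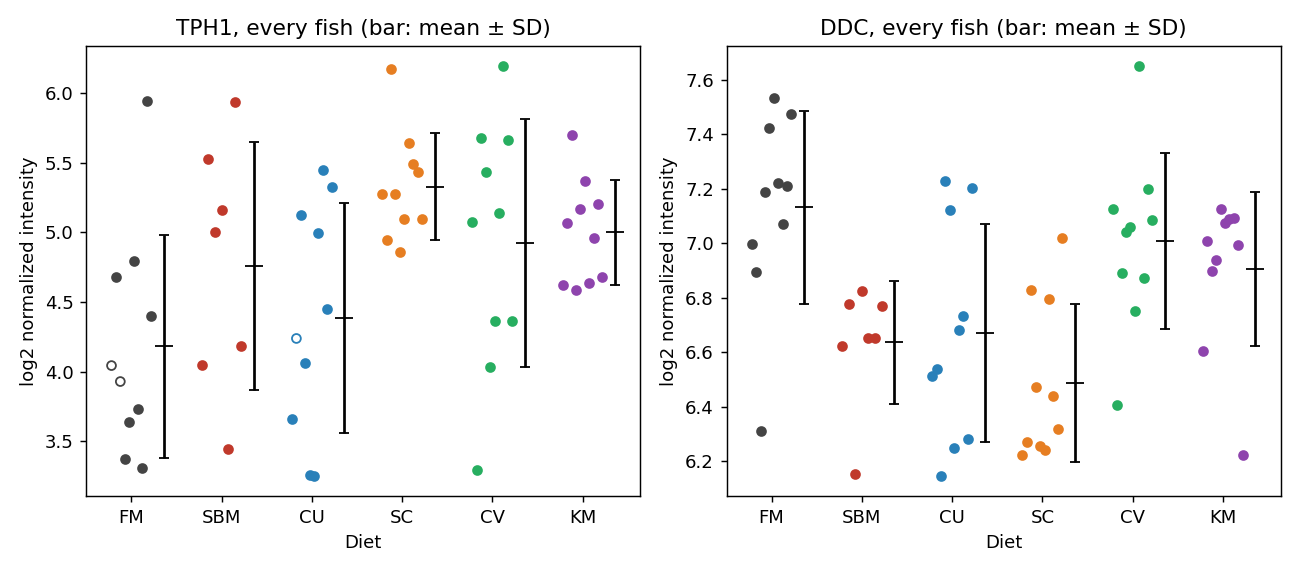
Log2 normalized intensity of TPH1 (left) and DDC (right) in every fish, by diet. Points are fish, open points are the 3 imputed TPH1 values, and bars are mean ± SD (10 fish per diet, 7 in SBM). TPH1 in SC and KM lay in a narrow band above most FM fish, and every DDC value in SBM, SC and KM was below the FM mean of 7.13.

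In KM and CV the mean TPH1 level was between those of FM and SC. In KM the log2 intensity ran from 4.58 through 5.01 to 5.70, and every one of the 10 fish was above the mean of FM. In CV it ran from 3.30 through 5.11 to 6.19, with 8 of 10 fish above the FM mean and 2 below. The KM fish thus varied little and lay above the FM mean, though all were dimmer than the brightest FM fish (5.94). CV held both some of the brightest and some of the dimmest fish of the study. CV fish 2, 5, 6 and 10 (TPH1 3.30 to 4.37) had 1909 to 2237 spots that failed the filter. The other CV fish (5.08 to 6.19) had fewer, 1264 to 1822. In CU, by contrast, fish 3 had the most failed spots (2762) and a TPH1 level of 5.12. The part of failed spots in the TPH1 level was not tested. The log2 FC was 0.82 (SE 0.31, 95% CI 0.19 to 1.44) in KM and 0.74 (SE 0.31, 95% CI 0.11 to 1.37) in CV, and neither was called DE. In KM the gene was called with slide as a block in the model (0.85, adjusted p = 0.0129), with all fish kept. Without FM fish 9, TPH1 was called above FM in KM (1.01) and in CV (0.93), with an adjusted p of 0.00379. Without the dimmest CV fish (fish 2) it was also called in CV (0.92, adjusted p = 0.00828). Of all probes, 9.30% were called above FM in KM and 9.99% in CV. The median log2 FC of all tested probes was itself 0.14 in KM and 0.17 in CV, and relative to it TPH1 stood at 0.68 and 0.57. With scaling to the 75th percentile of each array the values were 0.50 in KM and 0.36 in CV, and over all settings they ran from 0.11 to 0.98 and from 0.11 to 1.28.

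In SBM and CU the spread between fish was as large as any difference from FM. SBM fish ran from 3.44 through 5.0 to 5.94, with 5 of 7 above the FM mean, and the log2 FC was 0.57 (SE 0.35, 95% CI -0.12 to 1.27). CU fish ran from 3.25 through 4.35 to 5.44, with 6 of 10 above the FM mean. The 6 include CU fish 2, whose spot failed the filter and whose imputed value of 4.24 was just above that mean. The log2 FC in CU was 0.20 (SE 0.31, 95% CI -0.43 to 0.83) and was -0.035 within the first scan day. CU was the diet closest to FM for this gene, and both intervals hold 0. Between fish of one number on one slide, TPH1 was higher in SBM than in FM in 6 of 7 pairs (-0.19 to 1.79, median 0.85). In CU it was higher in 4 of 9 (-1.54 to 2.14, median -0.37). With slide as a block the log2 FC was 0.54 in SBM and 0.14 in CU, neither called. Of all tested probes, 13.7% were called above FM in SBM and 2.02% in CU. The SD between fish was 0.38 in SC and 0.37 in KM, against 0.80 in FM, 0.89 in SBM, 0.83 in CU and 0.89 in CV.

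By mean TPH1 level, from low to high, the order was FM (4.18), CU (4.38), SBM (4.76), CV (4.92), KM (5.0) and SC (5.33). No neighbours in this order passed the test against each other. Among the 10 pairs of diets other than FM, 1 passed: TPH1 was higher in SC than in CU by 0.95 on the log2 scale (SE 0.31, 95% CI 0.32 to 1.57, limma, adjusted p = 0.0291 over all probes, 16.9% of which passed in this pair). It passed in 5 of 6 alternative settings and was 0.14 with normexp background correction, where it did not pass. SC and SBM differed by 0.57 (95% CI -0.12 to 1.26, adjusted p = 0.461), so a difference between the soybean diets with and without Saccharomyces was not detectable with these fish. These 2 diets also differ in fish meal. SC and KM, both with a yeast, differed by 0.33 (95% CI -0.30 to 0.96). The pairs differed widely in how many probes passed overall: 0.307% in SC against SBM, 10.9% in KM against SBM, 14.4% in CV against SBM and 9.44% in CU against SBM. The share was 3.15% in KM against CU, 0.0829% in KM against CV and 0.232% in CV against CU.

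**Figure D2:**
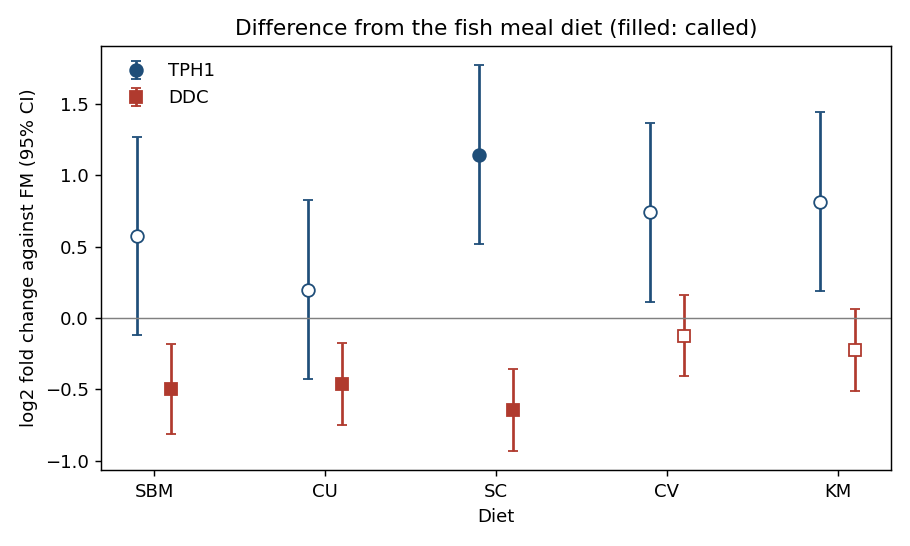
Log2 fold change against FM for TPH1 (circles) and DDC (squares) in each diet, with 95% confidence intervals. Filled symbols were called DE. TPH1 lay above 0 in every diet (in CU it was -0.035 within the first scan day) and was called in SC (1.14), while DDC lay below 0 in every diet and was called in SBM (-0.50), CU (-0.46) and SC (-0.65).

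The SC call for TPH1 was held in 9 of the 16 alternative settings and lost in 7. Of the 9, dropping the limit on the log2 FC could not have lost it. The deposited table was no independent check, since the study's calls on it gave TPH1 its name here. The call was held without the filter on dim spots, with that filter applied after normalization, and in each of the 20 fits that left out 1 SC or FM fish (1.05 to 1.34). It was lost with scaling to the 75th percentile of each array (0.96, adjusted p = 0.0513), without imputation (1.095, adjusted p = 0.0536) and relative to the median of all probes (1.09, adjusted p = 0.0557). With normexp, a model-based background correction that adds an offset of 50, it shrank to 0.16 (adjusted p = 0.124). With an offset of 1 it was 0.24 (adjusted p = 0.105). Within the 26 arrays of the first scan day the log2 FC was 1.32 (adjusted p = 0.0572), and within the 31 arrays of the second it was 1.08 (adjusted p = 0.288). The direction in SC was the same in all 16 alternative settings.

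**Figure D3:**
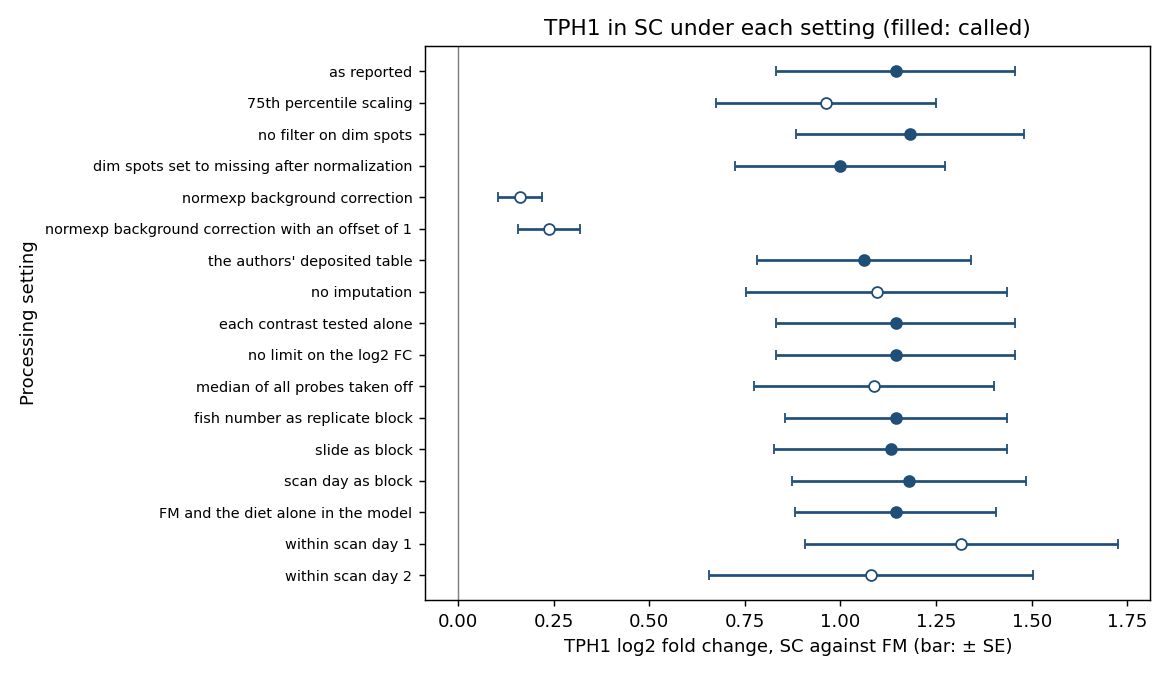
TPH1 log2 fold change in SC against FM under each processing setting (point, bar ± SE). Filled points were called DE. Values lay between 0.16 with normexp and 1.32 within the first scan day, all above 0.

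DDC differed in the other direction. It was lower than in FM in SC, SBM and CU, where it was called DE, and no fish of SC or SBM reached the FM mean. The log2 intensity in FM ran from 6.31 through a median of 7.20 to 7.53. In SC it ran from 6.22 through 6.38 to 7.02, and 4 of the 10 fish were below the lowest FM fish. In SBM it ran from 6.15 through 6.65 to 6.82, and 1 of the 7 fish was below the lowest FM fish. Leaving FM fish 3 aside, every SBM fish and 9 of the 10 SC fish were below every FM fish. With all fish kept, the groups overlapped through FM fish 3 and SC fish 10. The log2 FC was -0.65 in SC (SE 0.14, 95% CI -0.93 to -0.36), 1.56-fold lower than FM, and -0.50 in SBM (SE 0.16, 95% CI -0.81 to -0.18), 1.41-fold lower (limma, adjusted p = 0.00136 for the F-test over the 5 contrasts). Of all tested probes, 9.28% were called below FM in SC and 8.62% in SBM. Without SBM fish 3 the SBM call was lost (-0.42). The fish with the lowest DDC level in FM, SBM and CU, each numbered 3, lay on the same slide. In every diet but SBM, the fish with the lowest DDC level had the most failed spots of its diet. These numbered 3320 in FM, 2762 in CU, 2738 in SC, 2237 in CV and 2760 in KM. In SBM fish 3 had 2161, fewer than fish 5 (2535). The part of failed spots in the DDC level was not tested. In FM, SBM and CU, fish of one number from 1 to 9 shared a slide, and within these slides DDC was lower in SBM than in FM in 7 of 7 pairs (-0.88 to -0.12) and lower in CU in 8 of 9 (-1.28 to 0.04). With slide as a block the log2 FC was -0.65 in SC, -0.52 in SBM and -0.48 in CU, all called (adjusted p = 0.00073).

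In CU the DDC values covered a wide range, from 6.15 through 6.61 to 7.23. The fish below the FM mean were 8 of 10, and 3 of them were below every FM fish. The log2 FC was -0.46 (SE 0.14, 95% CI -0.75 to -0.18), 1.38-fold lower, where 3.34% of all tested probes were called below FM. With only FM and CU fish in the model, so that the spread came from these diets alone, the value was the same and the call was lost (adjusted p = 0.169).

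In CV and KM the DDC values differed least from FM. CV fish ran from 6.41 through 7.05 to 7.65 and included the fish with the highest DDC level of the study. KM fish ran from 6.22 through 7.0 to 7.13. All 10 were below the FM mean, by little in most, and 1 was below the lowest FM fish. The log2 FC was -0.12 (SE 0.14, 95% CI -0.41 to 0.16) in CV and -0.23 (SE 0.14, 95% CI -0.51 to 0.06) in KM. Neither was called DE, and below FM were called 0.605% of all probes in CV and 1.86% in KM. Relative to the median of all probes, DDC stood at -0.29 in CV and -0.36 in KM. Over all settings the values ran from -0.31 to -0.07 in CV and from -0.38 to -0.12 in KM, and no setting called DDC in either diet. All these values were smaller in size than the limit of 0.4. Without the filter on dim spots they were -0.31 in CV and -0.38 in KM (SE 0.10 each). With the deposited table they were -0.26 and -0.35 (SE 0.11 each). With the size limit dropped in the main fit, neither was called. The missing calls therefore do not show that DDC was unchanged in these diets.

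By mean DDC level, from high to low, the order was FM (7.13), CV (7.01), KM (6.90), CU (6.67), SBM (6.64) and SC (6.49), and no neighbours passed the test against each other. Of the 10 pairs of soybean diets, 2 passed. DDC was lower in SC than in CV by 0.52 on the log2 scale (SE 0.14, 95% CI 0.24 to 0.81, limma, adjusted p = 0.00538, 23.9% of all probes passed), and this difference passed in all 6 alternative settings. It was lower in SC than in KM by 0.42 (SE 0.14, adjusted p = 0.0451, 11.8% of all probes passed), which passed in 1 of 6. Most same-numbered fish of SC, CV and KM shared a slide, and slide was not a block in the tests of pairs. The differences of DDC from SBM were 0.37 in CV (95% CI 0.06 to 0.69, adjusted p = 0.102), 0.27 in KM (95% CI -0.05 to 0.58, adjusted p = 0.264), 0.03 in CU (95% CI -0.28 to 0.35) and -0.15 in SC (95% CI -0.47 to 0.17). None of these 4 passed.

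With normexp the DDC log2 FC shrank to -0.30 in SC, -0.24 in SBM and -0.22 in CU (adjusted p = 0.00197). These values were below the limit of 0.4, so all 3 calls were lost by size and not by the test. Within the first scan day the values were -0.59 in SC, -0.52 in SBM and -0.59 in CU, of which the last was called (adjusted p = 0.0487). Within the second day they were -0.65, -0.50 and -0.34, with none called (adjusted p = 0.168).

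No relation between the 2 genes across fish of a diet passed the test. Pearson's r of TPH1 with DDC was 0.15 in FM, 0.03 in CU, 0.50 in SC, 0.42 in CV and 0.38 in KM (10 fish each, permutation p from 0.174 to 0.942, two-sided). In SBM it was -0.00 (n = 7, exact permutation p = 0.957). Spearman's rho lay between 0.14 and 0.49 (permutation p from 0.156 to 0.709, of which SBM exact). Among the 12 relations tested, the lowest adjusted p was 0.861 for r and 0.783 for rho. The r moved when the 2 fish farthest from the median TPH1 level were left out (-0.12 in FM, 0.02 in SBM, -0.21 in CU, 0.21 in SC, 0.21 in CV and 0.59 in KM). With scan-day means taken off it was 0.10, -0.10, 0.02, 0.30, 0.33 and 0.42.

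No relation of either gene to the histology scores of individual fish passed the test. Within KM, SC and CU the r of TPH1 with the sum of the scores was -0.15, 0.21 and -0.18, and that of DDC was -0.34, -0.24 and 0.34 (permutation p from 0.346 to 0.680, two-sided, n = 10 each, adjusted p from 0.861 to 0.863). Spearman's rho ran from -0.35 to 0.40 (adjusted p = 0.783). Without the 2 fish whose score was farthest from the median, r lay between -0.18 and 0.11, and with scan-day means taken off between -0.50 and 0.34. FM, CV and SBM fish had too little variation in score for this relation.

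TPH1 differed in direction from most of the enzymes that break tryptophan down. Of 17 probes listed for tryptophan metabolism, TPH1 and DDC included, 13 were below and 1 above FM in SC, where 9.28% of all tested probes were below and 13.2% above, and the one above was TPH1. The list was chosen by the study on these fish from probes it had called. It gives no independent evidence of direction or of the number called. The kynurenine pathway opens with indoleamine 2,3-dioxygenase 2 (I23O2), which was lower in SC (log2 FC -1.49, SE 0.31), SBM (-1.05, SE 0.34) and KM (-0.95, SE 0.31) and was measured on 52 arrays. Kynurenine 3-monooxygenase (KMO), which hydroxylates kynurenine, was called in SC at -1.40 (SE 0.19) and in SBM at -1.37 (SE 0.21). Arylformamidase (AFMID), the step after the dioxygenase, was called in SC (-0.46, SE 0.10) and had -0.36 in SBM, not called. ACMSD, a decarboxylase that diverts the pathway from NAD synthesis, was lower in all diets but CV, where it had -0.24: -1.14 in SC, -0.86 in SBM, -0.47 in CU and -0.45 in KM.

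Kynureninase (KYNU), which cleaves kynurenine and its hydroxylated form, differed in direction between diets. It was called below FM in SC (-0.49) and above FM in CV (0.45) and KM (0.56), and had 0.00 in SBM and 0.31 in CU. The calls of KYNU above FM depended on the processing. Without the filter on dim spots, none of the 17 probes was called above FM in KM. Relative to the median of all probes, none was called above FM in CV. Mitochondrial aldehyde dehydrogenase (ALDH2), which oxidises the aldehyde formed from serotonin by monoamine oxidase, was called below FM in SC (-0.69) and SBM (-0.55) alongside DDC. In SBM, 10 of the 17 probes were below and 1 above (cytosolic acetyl-CoA acetyltransferase, THIC, 0.61), in CU 5 below, in KM 5 below and 2 above, and in CV 1 below and 2 above. Of all tested probes, 8.62% were below and 13.7% above in SBM, 3.34% and 2.02% in CU, 1.86% and 9.30% in KM and 0.605% and 9.99% in CV. The median log2 FC of the list was -0.65 in SC, -0.55 in SBM, -0.28 in CU, -0.23 in KM and -0.02 in CV, beside 0.06, 0.09, -0.01, 0.14 and 0.17 over all tested probes. The DDC log2 FC lay at the list's median in SC and KM, and TPH1 lay above it in each diet.

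**Figure D4:**
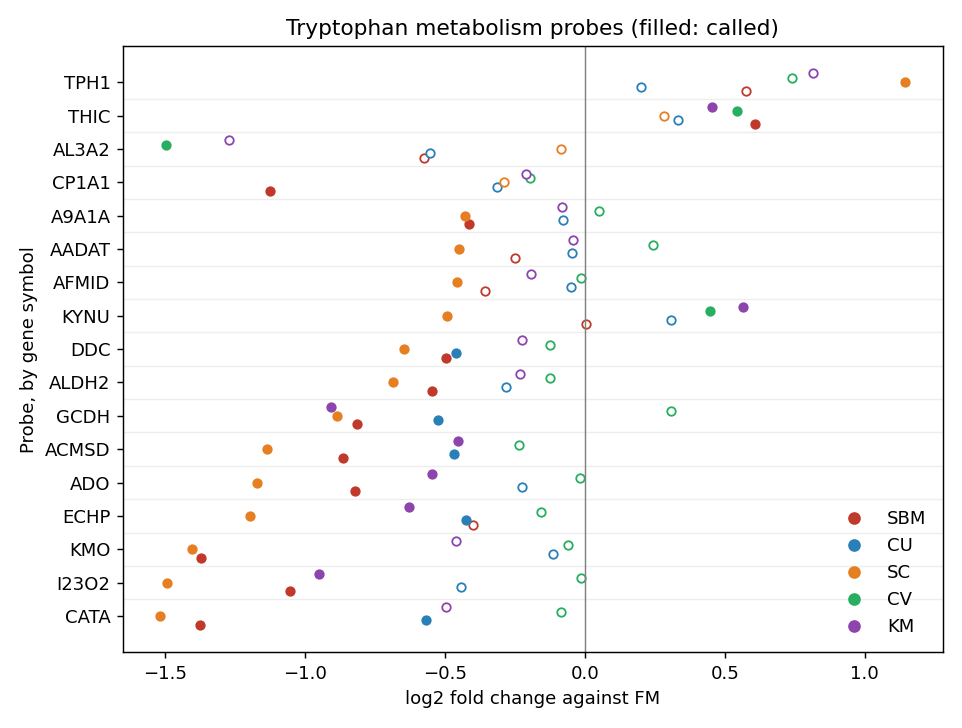
Log2 fold change against FM of the 17 probes listed for tryptophan metabolism, coloured by diet, ordered by their value in SC. Filled points were called DE. TPH1 is the topmost with 1.14 in SC, and 13 of the other probes, DDC among them, were called below FM in that diet.

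Serotonin also needs tryptophan uptake, the cofactor tetrahydrobiopterin, and removal. Of 72 symbols searched for these roles, receptors and transporters included, 8 probes of 6 genes carried a name here, so serotonin receptors, the serotonin transporter and monoamine oxidase were not analysed here. Besides TPH1, DDC and ALDH2 they included the amino acid transporter B(0)AT1 (S6A19, 2 probes) and the feedback regulator of GTP cyclohydrolase (GFRP), the enzyme that starts tetrahydrobiopterin synthesis. GFRP was called below FM in SC (-0.52) and SBM (-0.49). The S6A19 probes disagreed: 1 was called below FM in SC (-1.37) and SBM (-1.65), while the other had 0.06 and -0.32 there and was called below FM only in KM (-0.71). None of these genes other than TPH1 was called above FM in SC.

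The 25 probes listed for the serotonergic synapse pathway, which spans receptors' signalling partners, went both ways. In SC 10 were above and 5 below FM, in SBM 13 and 5, in CU 5 and 5, in CV 6 and 0 and in KM 9 and 0. These counts stand beside 13.2% above and 9.28% below over all tested probes in SC, 13.7% and 8.62% in SBM, 2.02% and 3.34% in CU, 9.99% and 0.605% in CV and 9.30% and 1.86% in KM. The list holds only probes that the study had called on these fish, so the shares give no measure of enrichment. TPH1 was among the 10 of SC and DDC among those below in SC, SBM and CU. The other probes were mostly general signalling proteins, such as GNA14, a G protein subunit (0.98 in SC), and cytochrome P450 2J2 (CP2J2, 1.64 in SC), and these are not specific to serotonin.

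Across the 57 arrays, the named genes with a pattern most like that of TPH1 were genes of nerve and of muscle. They were MAP6, a microtubule protein of neurons (r = 0.81, 0.75 with the diet means taken off), neuromodulin (NEUM, 0.81 and 0.75), a growth-cone protein, plasticin (PLST, 0.81 and 0.74), a neuronal intermediate filament of fish, and synemin (SYNEM, 0.80 and 0.75), a muscle intermediate filament. All 4 were called above FM in SC, with log2 FC from 1.03 to 1.25, where 13.2% of all tested probes were. They were picked by an r that includes the diet differences, from probes the study had called. Their calls are therefore no separate evidence. These were correlations across fish within and between diets, taken from the 2331 probes with a name, and points share an array. The highest r with any probe, named or not, was 0.81. At the other end were RS30 (r = -0.39, -0.28 with the diet means taken off), PPT2A (-0.37 and -0.17) and NKD1 (-0.37 and -0.25).

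Markers of nerve and of smooth muscle moved with TPH1. Of the lists, 2 enteric nerve probes (the neuronal hydrolase UCHL1 and the neurofilament NFM) and 3 smooth muscle probes (desmin, DESM, 2 probes, and myosin-11, MYH11) had a name. All 5 were called above FM in SC (log2 FC 0.75 to 0.92), 3 in KM (0.55 to 0.98 over the 5), 1 in CV (0.33 to 0.63) and none in SBM (0.04 to 0.38) or CU (-0.02 to 0.23). Of all tested probes, 13.2% were called above FM in SC, 9.30% in KM, 9.99% in CV, 13.7% in SBM and 2.02% in CU. A probe had a name only if the study had called it on these fish, so each of the 5 was likely to be called in some diet. The shares over all probes, most of them without a name, therefore give no measure of enrichment. The mean log2 intensity of the 5 probes ran from 8.25 to 9.72 in FM, 8.35 to 9.67 in SBM, 8.09 to 9.83 in CU, 9.34 to 9.97 in SC, 8.68 to 10.1 in CV and 9.09 to 10.2 in KM. The lowest fish stood at 9.34 in SC and 9.09 in KM, against 8.09 to 8.68 in the other diets. For TPH1 the lowest stood at 4.86 and 4.58, against 3.25 to 3.44. FM fish 9, the FM fish with the highest TPH1 level, also had the highest nerve and muscle level of its diet (9.72).

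The r of TPH1 with this mean was 0.80 over the 57 arrays and 0.74 with diet means taken off. By diet it was 0.70 in FM, 0.82 in SBM, 0.76 in CU, 0.87 in CV, 0.68 in KM and 0.17 in SC. For DDC it was -0.13 and -0.00. The amount of muscle wall and nerve tissue in each sample was not recorded, and its part in the TPH1 difference was not tested. The part of failed spots in the r of TPH1 was not tested either.

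**Figure D5:**
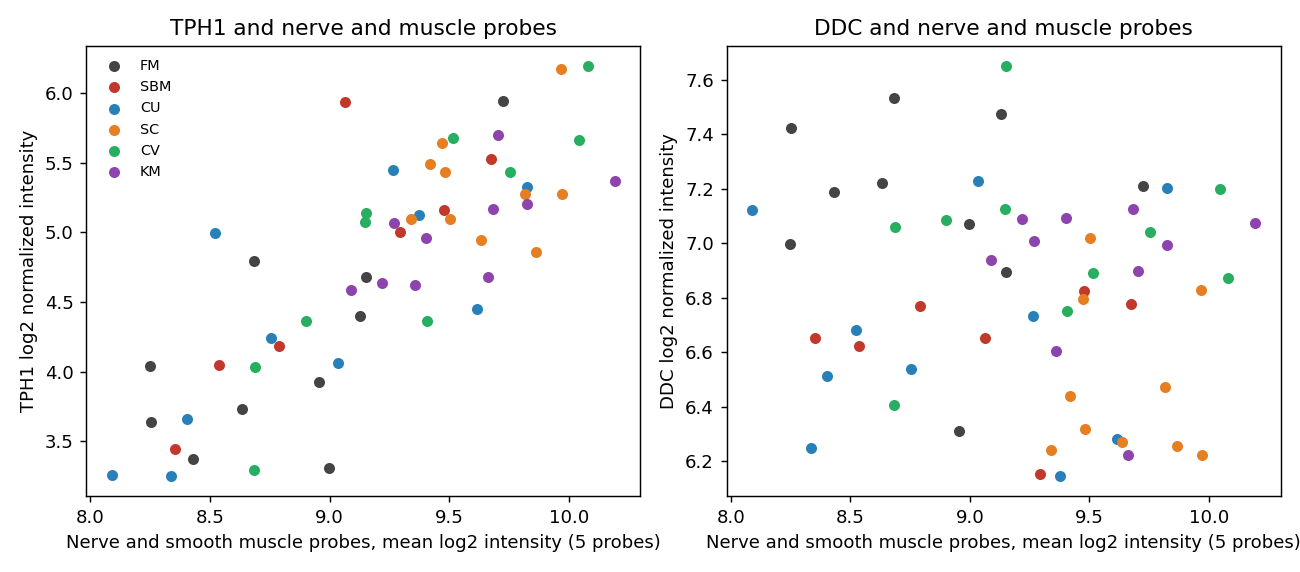
TPH1 (left) and DDC (right) log2 normalized intensity in each fish against the mean log2 intensity of 5 nerve and smooth muscle probes, coloured by diet. TPH1 rose with the nerve and muscle probes (r = 0.80 over 57 fish), and DDC showed no such slope (r = -0.13). Fish at the upper end came from several diets, SC, KM and CV among them.

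Markers of enteroendocrine cells, the cells in which serotonin is made in the gut of mammals, did not move together. Of 25 symbols, 3 probes carried a name. Cholecystokinin (CCKN), a hormone of enteroendocrine cells, was called below FM in SC (-1.23), SBM (-0.77), CU (-0.67) and KM (-0.83). Synaptophysin (SYPH), a vesicle protein shared by neurons and endocrine cells, was called below FM in all 5 diets (-0.47 to -0.86). Neuroendocrine protein 7B2 was called above FM in SC (0.96). Over the 57 arrays it had an r of 0.74 with TPH1 and -0.04 with DDC. SYPH had an r of 0.61 with DDC and -0.20 with TPH1. These r include the differences between diets, and the r within diets is not given for these single probes. The mean of the 3 probes ran from 7.35 to 7.98 in FM, 6.77 to 7.58 in SBM, 7.03 to 7.95 in CU, 6.78 to 7.70 in SC, 7.17 to 8.12 in CV and 7.10 to 7.72 in KM. The r of this mean with TPH1 was 0.39 over the 57 arrays and 0.67 with diet means taken off. With DDC it was 0.42 and 0.21. For the nerve list and the smooth muscle list, each taken apart, the r with TPH1 was 0.68 with diet means taken off. Chromogranin, the usual marker of these cells, was not analysed here, and the part of enteroendocrine cell number was not tested.

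The named genes with a pattern most like that of DDC had mixed roles. They were molybdenum cofactor sulfurase (MOCOS, r = 0.73, 0.62 with diet means taken off), WSCD2 (0.72 and 0.56), ACSS3 (0.71 and 0.61), a short-chain acyl-CoA synthetase, and M4GDB (0.71 and 0.61). All 4 were called below FM in SC, from -0.44 to -1.27, where 9.28% of all tested probes were. They were picked in the same way as those for TPH1, so their calls are no separate evidence. At the other end stood calpain-2 (CAN2, r = -0.44), DCC1 (-0.44) and HEM1 (-0.41), each of them called above FM in all 5 diets, whose r within diets was near 0 (-0.14 to -0.06). Intestinal fatty acid-binding protein (FABPI), a marker of absorptive epithelium, was called below FM in SC (-1.89) and SBM (-1.32) together with DDC (r = 0.43), and keratin 18 (K1C18), of the epithelium too, was above FM in these diets on 2 or 3 of its 3 probes. The mean of the 4 epithelium probes ran from 11.2 to 12.01 in FM, 11.6 to 12.3 in SBM, 11.4 to 12.2 in CU, 11.3 to 11.9 in SC, 11.5 to 12.2 in CV and 11.4 to 12.3 in KM.

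No single probe of immune cells followed both genes over the 57 arrays, where r includes the differences between diets. The r within diets is not given for the single probes. The mean of the 3 granulocyte and macrophage probes had an r of 0.40 with TPH1 and 0.49 with DDC. With diet means taken off it was 0.41 and 0.49. Of 7 symbols for granulocytes and macrophages, 3 probes carried a name. MPEG1, a perforin-like protein of macrophages, was called below FM in SC (-0.68) and SBM (-0.49). It had an r of 0.51 with DDC and 0.06 with TPH1. CD68, a lysosomal protein of macrophages, was called below FM in SBM (-0.41). It had an r of 0.49 with DDC and -0.10 with TPH1. CSF3R, the granulocyte colony-stimulating factor receptor, was called above FM in SC (0.87) and SBM (0.61). It had an r of 0.54 with TPH1 and -0.03 with DDC. The mean of the 3 probes ran from 8.39 to 9.11 in FM, 8.43 to 8.91 in SBM, 8.33 to 9.11 in CU, 8.47 to 8.94 in SC, 8.50 to 9.23 in CV and 8.49 to 9.38 in KM. The B cell marker IGHM was called below FM in SBM (-0.45) and had an r of 0.44 with DDC and 0.18 with TPH1. The part of the absorptive epithelium and of immune cells in the TPH1 and DDC differences was not tested.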

How the data were processed

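Distal intestine RNA was labelled with 1 dye (Cy3), 1 array a fish. The authors extracted intensity values with Agilent Feature Extraction 10.7.1.1, which deposited background-subtracted spot intensity, and they deposited a table of log2 values for 12064 probes, the array values after their filtering, quantile normalization and imputation. Its columns correlated with the scanner values at 0.990 or more, and it served as an alternative. No column of the authors' comparisons was used. The submitters' processing notes name limma.

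Here 536 control spots were dropped. Spots that failed any of 3 scanner flags (signal positive and significant, well above background, uniform) became missing values (1264 to 3320 of 14841 on an array). After quantile normalization and log2 transformation, 2776 probes with missing values on over 15% of arrays were dropped, which left 12065, and 0.617% of their values were imputed with 10 nearest neighbours. limma 3.58.1 in R 4.3.3 fitted diet on all 57 arrays with empirical Bayes moderation. The 5 contrasts with FM were called by the nested F-test (Benjamini-Hochberg adjusted p of 0.05, log2 FC of 0.4), and the printed adjusted p is that of the F-test. The 10 other pairs were adjusted per pair over all probes. Correlations were tested with scipy 1.17.1 by 100000 permutations (exact for 7 fish). The fit was tested on simulated data. Genes were named from the study's own tables of probes it had called (2331), so the lists are not independent. TPH1 and DDC, the lists and the tests were chosen with earlier results of these data known. Named genes were both members, list members called or next to serotonin, and the 5 highest and 3 lowest r with each member; some of these are not reported here. Arrays lay on 9 slides and in 2 scan days, each with nearly all diets. Fish numbers were shared by diets. Fish numbered 1 to 9 shared a slide within FM, SBM and CU, and likewise within SC, CV and KM. The correlation of same-numbered deviations with FM had a median of 0.14 in SBM and 0.16 in CU. It was 0.01 in SC, -0.01 in CV and 0.04 in KM, whose same-numbered fish lay on other slides than FM and so could not show an effect of slide. The numbers were not taken as pairs in the main fit. Slide was a block only in an alternative for the contrasts with FM, not for the 10 other pairs. Normexp used the median spot signal. Array number limits the precision. Alternatives covered scaling, filters, background, imputation, calls, blocks and single fish.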

Additional observations from a re-analysis of the deposited data

Results flagged for a closer look

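Of the 12 sets of values (2 genes in 6 diets), 2 held a fish whose gap to its neighbour was over Dixon's 95% critical value, where chance gives about 1 in 20. The lowest DDC value in FM was 6.31 in fish 3, against 6.90 for the next fish, and the gap was 0.479 of the range of the diet (critical value 0.466). That fish also had the most failed spots of all 57 arrays (3320). Without that fish the log2 FC of DDC was -0.74 in SC, -0.59 in SBM, -0.55 in CU, -0.32 in KM and -0.22 in CV, with the calls as before. The lowest DDC value in SBM was 6.15, also in a fish numbered 3 on the same slide, against 6.62 for the next, and the gap was 0.701 of the range (critical value 0.568). Without it the log2 FC of DDC in SBM was -0.42 and was not called.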

How the results depend on the processing

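Leaving out 1 fish at a time, the log2 FC of TPH1 ran from 0.38 to 0.79 in SBM, 0.08 to 0.39 in CU, 1.05 to 1.34 in SC, 0.60 to 0.93 in CV and 0.72 to 1.01 in KM, and that of DDC from -0.59 to -0.42 in SBM, -0.55 to -0.40 in CU, -0.74 to -0.60 in SC, -0.22 to -0.06 in CV and -0.32 to -0.15 in KM. Calls changed without FM fish 9 (TPH1 in CV and KM gained), CV fish 2 (TPH1 in CV gained) and SBM fish 3 (DDC in SBM lost).

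TPH1 in SC was not called with scaling to the 75th percentile (0.96), normexp (0.16), normexp with an offset of 1, chosen after seeing the data (0.24), no imputation (1.095), the median taken off (1.09), or within scan day 1 (1.32) or 2 (1.08). It was not tested when probes missing on more than 5% of arrays were left out, since it was missing on 3 of 57. TPH1 in CU was -0.035 within scan day 1. With fish number as a replicate block, TPH1 in KM was called (0.82, adjusted p = 0.0106), and with slide as a block too (0.85). The block by fish number changed no other call of the 2 genes. DDC was not called with normexp in SBM (-0.24), CU (-0.22) and SC (-0.30), with the offset of 1 (-0.30, -0.28 and -0.37), within scan day 1 in SBM (-0.52) and SC (-0.59), within day 2 in SBM (-0.50), CU (-0.34) and SC (-0.65), and in CU with only FM and CU in the model (-0.46).

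Of the pairs, TPH1 in SC minus CU was 0.14 with normexp and not called. TPH1 in CV minus SBM was -0.0078 with dim spots kept and -0.020 with the deposited table, and in KM minus CV it was -0.00043 with normexp. Of tryptophan metabolism probes, normexp called 2 in CU, 7 in SC, 1 in CV and 3 in KM. Over all probes, normexp called 1790 in SBM, 334 in CU, 1681 in SC, 344 in CV and 542 in KM, against 2690, 647, 2715, 1278 and 1347. Without a limit on the log2 FC the calls were 3603, 1304, 3900, 2271 and 2200. The share of calls above FM was 94.3% in CV and 83.3% in KM, 68.7% and 60.7% with scaling to the 75th percentile, and 42.9% and 47.2% relative to the median of all probes. Some fits with fewer fish called fewer probes still: 144 in CU with only FM and CU, and 192 in CV and 285 in KM within scan day 1. Both TPH1 and DDC kept their direction against FM in SBM, SC, CV and KM under every setting run. The causes of these changes were not tested, except that a scan day holds fewer fish.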
